A study of Mus musculus with 38 samples.

Results

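The comparison of day 1 of return with normoxia asked how far the small vessels of the mouse lung still stood from those of control animals 1 day after a return from chronic hypoxia to normal oxygen. No array held both conditions, so the difference was a sum of 2 parts. The first part was hypoxia minus normoxia, and the second was day 1 of return minus hypoxia. Members were the arrays whose titles pair hypoxia (H) with normoxia (N) or with day 1 (N1), the condition in Cy3 named first and that in Cy5 second. These were 12 of 38 arrays: 4 titled H_N, 4 titled N_H, 1 titled H_N1 and 3 titled N1_H. They held 24 of the 76 animals of the series: 8 in normoxia, 12 in hypoxia and 4 on day 1.

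All animals were C57BL/6J mice aged 12 to 18 weeks. They had spent 21 days at an inspired oxygen fraction of 0.21 (normoxia) or 0.1 (hypoxia), and the day 1 animals had then spent 1 day in normoxia after hypoxia. Laser microdissection took vessels with an outer diameter between 50 and 100 µm from lung sections of 10 µm, and each channel of an array carried the RNA of 1 animal. Such vessels hold endothelium, smooth muscle, adventitial fibroblasts and the leukocytes around them, and a dissection can carry neighbouring lung tissue. With bulk RNA, fewer cells of a type and less RNA per cell cannot be told apart.

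Chronic hypoxia constricts the small arteries of the lung and thickens their walls, as smooth muscle grows into vessels that had little of it, matrix is laid down, and macrophages gather in the adventitia. A return to normal oxygen is followed by a slow reversal of these changes, which makes this model a standard one for regression of vascular remodelling. The first day lies at the start of that reversal.

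The deposited values were log ratios of the 2 channels. Their base was not stated and was read as log10, and folds are given for both log10 and log2. The direction, Cy5 over Cy3, is likely by the convention of limma but not stated. If it ran the other way, every sign below would turn. Each array was read with the dye effect removed and turned so that a positive value means higher in hypoxia than in normoxia, or higher on day 1 than in hypoxia. The ratios of H_N1 replicate 1 (day 1 over hypoxia) and N_H replicate 2 (hypoxia over normoxia) correlated at -0.386 over all entries. The ratios of N_H replicate 1 and N1_H replicate 3 correlated at -0.391 before turning, which is 0.391 once they are turned to the directions above. Among the day 1 arrays, once turned, H_N1 replicate 1 correlated at -0.0155, 0.0198 and -0.0627 with N1_H replicates 1 to 3. Those 3 replicates, which share a dye order, correlated among themselves at 0.282, 0.156 and 0.101. The array with day 1 in Cy5 thus had almost no correlation with the others. The dyes in the labels were kept. A ratio gives no level, so the labelled tissue could not be checked against its markers. Among 26 markers of alveolar type 1 and type 2 cells, which lie outside vessels, the mean log ratio of hypoxia minus normoxia was positive on all 8 arrays, from 0.0430 to 0.136. For day 1 minus hypoxia it was -0.105 on H_N1 replicate 1, and -0.0297, -0.0286 and 0.0116 on N1_H replicates 1 to 3.

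On the 12 arrays, day 1 minus normoxia had 0 of 30653 entries (genes, or features without a single gene symbol) past a Benjamini-Hochberg adjusted p of 0.05 by limma. The share called was 0%, and the smallest adjusted p was 0.274. At an unadjusted p under 0.05 there were 1750 entries (5.71%), 818 of them higher (2.67%) and 932 lower (3.04%) on day 1, where 5% of the entries is 1533. Leaving out each of the 12 arrays in turn gave 0 or 1 entries, the 1 being an unnamed feature at -0.299 (adjusted p = 0.0288) without H_N replicate 3. The median SE was 0.0445 for day 1 minus normoxia, 0.0250 for hypoxia minus normoxia and 0.0369 for day 1 minus hypoxia. For any one entry the SE of the sum was 1.78 times that of the hypoxia part.

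The hypoxia part alone had 475 entries past the threshold (1.55%), 244 higher (0.796%) and 231 lower (0.754%) in hypoxia. The day 1 part had 0, with 1101 at an unadjusted p under 0.05 (3.59%). Without 1 array, the hypoxia count was 132 without N_H replicate 3, 198 without N_H replicate 4, 202 without H_N replicate 2, 219 without N_H replicate 2, 221 without H_N replicate 3, 281 without H_N replicate 4, 283 without N1_H replicate 2 and 289 without N1_H replicate 1. When the alveolar score entered the fit as a covariate, the count was 1, the gene Cep112, at 0.341. The score came from the same data and was positive on every array of hypoxia minus normoxia. It thus overlaps with the term it adjusts, and what the fall in count reflects was not tested.

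Adding the other 26 arrays, which tie day 1 to hypoxia through days 3, 7 and 14 of return, brought 34 entries past the threshold for day 1 minus normoxia (0.111%), 11 higher (0.0359%) and 23 lower (0.0750%). Of these, 21 were named genes, 5 higher and 16 lower. All 34 had the same sign and an unadjusted p under 0.05 on the 12 arrays, which are part of the 38 and hold all the normoxia arrays, so this is no separate support. The count depended on single arrays: it was 1 without N3_N1 replicate 2, 2 without H_N replicate 2, N_H replicate 3 or N1_H replicate 3, and 10 without N3_N1 replicate 1. It was 15 without H_N3 replicate 2, 16 without N1_N3 replicate 2, 17 without N3_H replicate 1 or 2, 18 without H_N14 replicate 1 or N1_H replicate 2, 19 without N_H replicate 1 and 22 without H_N replicate 4. It was 53 without H_N1 replicate 1, 67 without N3_N7 replicate 2 or N7_H replicate 2, 70 without N1_H replicate 1, 82 without N_H replicate 4 and 98 without H_N7 replicate 1. Left out one at a time, 19 of the 38 arrays moved it by over 1.5 times. With the alveolar score in the fit, which brings the same overlap, 1 entry passed, the gene Wfdc17.

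Genes that were lower on day 1 than in normoxia over the 38 arrays included products of macrophages and dendritic cells (Wfdc17, Cd163, Mgl2), the smooth muscle protein calponin (Cnn1) and the cytokine receptor Tnfrsf12a. All 34 entries also passed for hypoxia minus normoxia over the 38 arrays, where 3.60% of all entries did, and 27 of them on the 12. In all 34 the day 1 part was smaller in size than the hypoxia part, in both fits. For the 21 named genes, hypoxia minus normoxia came to between 50.6% and 111% of day 1 minus normoxia over the 38 arrays (median 77.9%), and between 52.6% and 134% on the 12 (median 85.0%). The sum contains the hypoxia part by construction, so these shares are a description. On the 26 arrays outside the contrast the day 1 part had the sign of the sum in 32 of the 34 entries, but these arrays were part of the fit that chose the entries.

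**Figure D1:**
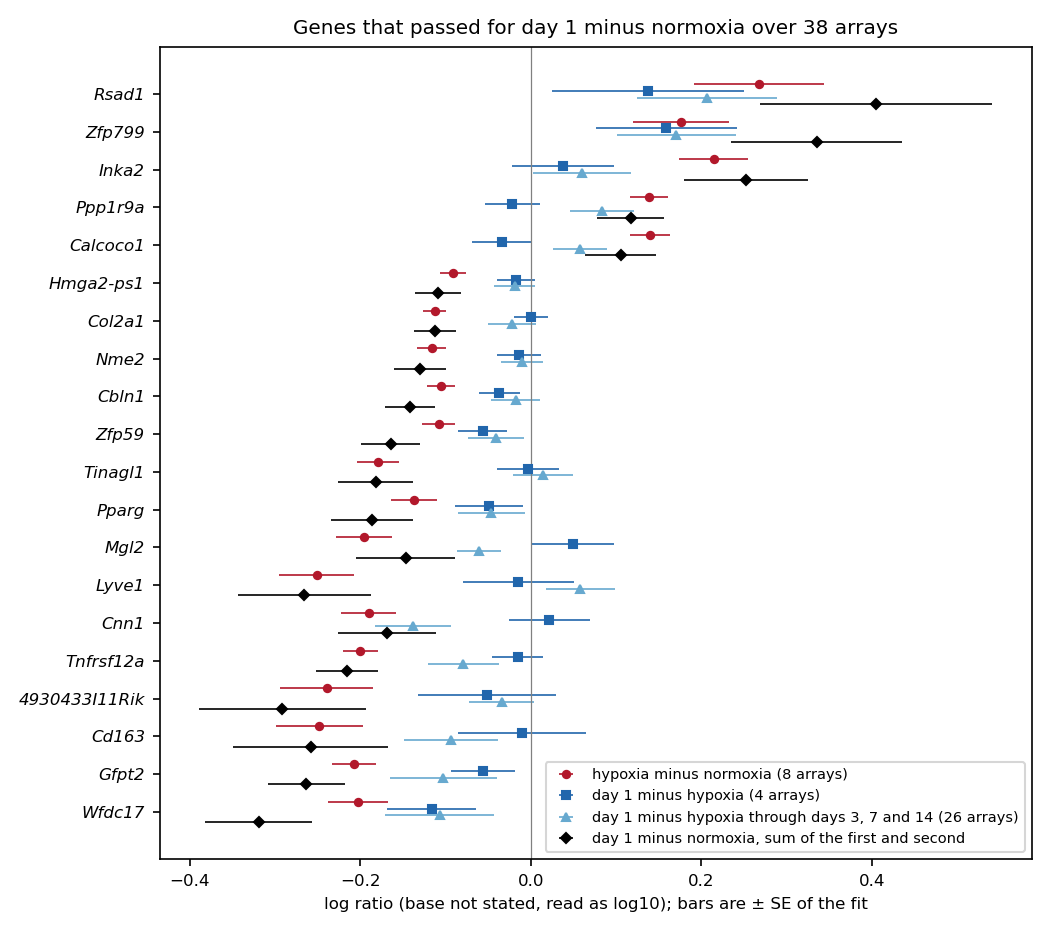
Log ratios (base read as log10) with ± SE for 20 of the 21 named genes that passed for day 1 minus normoxia over 38 arrays; circles are hypoxia minus normoxia, squares day 1 minus hypoxia, triangles day 1 minus hypoxia through days 3, 7 and 14, and diamonds the 12-array sum. The sum lies near the hypoxia part for most genes, and the widest bars belong to Rsad1.

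Tnfrsf12a, the receptor of the cytokine TWEAK, was the called gene with the smallest adjusted p (0.0118 over 38 arrays, limma). Its log ratio of hypoxia minus normoxia ran from -0.289 to -0.104 on the 8 arrays, with a median of -0.192. Its day 1 minus hypoxia values were -0.0566 on H_N1 replicate 1, and 0.0268, 0.0114 and -0.0439 on N1_H replicates 1 to 3. The values of hypoxia minus normoxia were all below 0, and those of day 1 minus hypoxia lay on both sides of 0. The sum was -0.215 ± 0.0362 (SE) on 12 arrays and -0.264 ± 0.0423 on 38. It passed in each of the 38 fits that left out an array.

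Wfdc17, a small secreted protein of macrophages, had the largest called decrease among named genes, -0.315 ± 0.0597 over 38 arrays (adjusted p = 0.0315), a difference of 2.07-fold in base 10 and 1.24-fold in base 2. Its hypoxia minus normoxia values ran from -0.360 to -0.0571, with a median of -0.191. Day 1 minus hypoxia was -0.243 on H_N1 replicate 1, and -0.133, 0.0401 and -0.130 on N1_H replicates 1 to 3. Day 1 animals were lower still than hypoxia animals on 3 of the 4 arrays, and the means of the parts were -0.203 ± 0.0352 and -0.116 ± 0.0520. The 26 other arrays gave -0.107 ± 0.0638 for the day 1 part. With the alveolar score in the 38-array fit it was -0.398 (adjusted p = 0.0225).

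Gfpt2, which makes glucosamine phosphate at the entry of the hexosamine pathway, was at -0.295 ± 0.0562 over 38 arrays (adjusted p = 0.0315). Its hypoxia minus normoxia values lay between -0.308 and -0.116, with a median of -0.199. Day 1 minus hypoxia was -0.0779 on H_N1 replicate 1, and 0.0332, -0.0838 and -0.0962 on N1_H replicates 1 to 3. One of the 4 day 1 arrays thus stood above 0 and the others close together below it. Both estimates of the day 1 part were negative, -0.0562 ± 0.0376 from the 4 arrays and -0.103 ± 0.0624 from the other 26.

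The macrophage genes Cd163, the scavenger receptor for haemoglobin bound to haptoglobin, and Lyve1, a hyaluronan receptor of lymphatic endothelium and of macrophages around vessels, were lower on day 1 mainly by the hypoxia part. Cd163 ran from -0.573 to -0.0209 in hypoxia minus normoxia (median -0.240). Its day 1 minus hypoxia values were 0.183 on H_N1 replicate 1, and -0.0248, -0.142 and -0.0572 on N1_H replicates 1 to 3. The sign thus differed between the array with day 1 in Cy5 and the 3 with day 1 in Cy3. Lyve1 ran from -0.464 to -0.132 (median -0.233), then 0.185 on H_N1 replicate 1 and -0.0282, 0.0180 and -0.233 on N1_H replicates 1 to 3. Its day 1 arrays spanned a wider range than the 8 hypoxia arrays. Their sums over 38 arrays were -0.293 ± 0.0630 (adjusted p = 0.0471) and -0.226 ± 0.0492 (adjusted p = 0.0493).

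Cnn1, calponin, which binds actin in differentiated smooth muscle, had different values by the 2 routes, a difference that did not pass the adjusted threshold. Its hypoxia minus normoxia values ran from -0.313 to -0.0718 (median -0.170). Day 1 minus hypoxia was -0.0359 on H_N1 replicate 1, and 0.0960, 0.0555 and -0.0297 on N1_H replicates 1 to 3, values on both sides of 0. The 26 other arrays put the same difference at -0.138 ± 0.0446, against 0.0215 ± 0.0475 from the 4 direct arrays. The test of that difference between routes gave an unadjusted p of 0.0147 and an adjusted p of 0.650 (limma). Over 38 arrays Cnn1 was at -0.244 ± 0.0494 (adjusted p = 0.0344), and through days 3, 7 and 14 alone at -0.327 (adjusted p = 0.0351). With the alveolar score in the fit it was -0.207 over 38 arrays, with an adjusted p of 0.374. Mgl2, a lectin of dendritic cells and macrophages, was the other gene that passed through days 3, 7 and 14 alone, at -0.259 (adjusted p = 0.00951).

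The other called genes that were lower had sums over 38 arrays between -0.287 and -0.108. They included Pparg, a nuclear receptor needed by alveolar macrophages and fat cells, at -0.190 ± 0.0389, and Tinagl1, a secreted matrix protein, at -0.176 ± 0.0348. For Tinagl1 the hypoxia part was -0.179 ± 0.0247, while its day 1 part was -0.00316 ± 0.0365. Nme2, a nucleoside diphosphate kinase, was at -0.126 ± 0.0236 and the zinc finger gene Zfp59 at -0.157 ± 0.0302. Cbln1, a secreted synapse organiser known from the cerebellum, was at -0.135 ± 0.0267, and Col2a1, the main collagen chain of cartilage, at -0.125 ± 0.0249. The 4 day 1 values of Col2a1 lay close to 0, at -0.0164, -0.000620, 0.000477 and 0.0176. The remaining ones were Hmga2-ps1, a pseudogene, 4930433I11Rik and the olfactory receptor gene Olfr633, the last of which was outside the rule for named genes.

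Of the 5 named genes that were higher on day 1 over the 38 arrays, Rsad1 had the largest sum, 0.430 ± 0.0935 (adjusted p = 0.0493), or 2.69-fold in base 10 and 1.35-fold in base 2. It encodes a protein with a radical SAM domain. Its hypoxia minus normoxia values spread from -0.0662 to 0.578 (median 0.276). Its day 1 minus hypoxia values were 0.0837 on H_N1 replicate 1, and -0.0359, 0.202 and 0.299 on N1_H replicates 1 to 3. The arrays overlapped 0 in both parts, and Rsad1 passed in 9 of the 38 fits with an array left out. Zfp799, a zinc finger gene, was the called gene whose parts were most equal, 0.176 ± 0.0561 in hypoxia and 0.159 ± 0.0829 from hypoxia to day 1. All 12 of its arrays were above 0. The hypoxia arrays ran from 0.0109 to 0.527 (median 0.108) and the day 1 arrays were at 0.132 on H_N1 replicate 1, and 0.0199, 0.165 and 0.319 on N1_H replicates 1 to 3. The 26 other arrays gave a day 1 part of 0.171 ± 0.0695, so both routes gave a similar size for Zfp799. Its sum over 38 arrays was 0.349 ± 0.0737 (adjusted p = 0.0415).

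Inka2, an inhibitor of the kinase Pak4, stood at 0.265 ± 0.0577 over 38 arrays, with a hypoxia part of 0.215 ± 0.0407. Ppp1r9a (neurabin), an actin-binding partner of protein phosphatase 1, was at 0.180 ± 0.0382, and Calcoco1, a nuclear receptor coactivator and autophagy receptor, at 0.158 ± 0.0334. For both, the direct day 1 part was below 0 and the part through days 3, 7 and 14 above it. Ppp1r9a had -0.0217 ± 0.0326 by the direct arrays and 0.0831 ± 0.0373 by the others. Calcoco1 had -0.0339 ± 0.0345 and 0.0578 ± 0.0314. The route difference had an unadjusted p of 0.0974 for Ppp1r9a and 0.0810 for Calcoco1 (limma), both with adjusted p near 1. Rsad1 was not alone in depending on single arrays. Of the 38 fits with an array left out, Inka2 passed in 12, Cd163 and Lyve1 in 13, Calcoco1 in 17, Ppp1r9a in 19 and Zfp799 in 21. The other called named genes, Olfr633 aside, passed in 25 to 38.

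**Figure D2:**
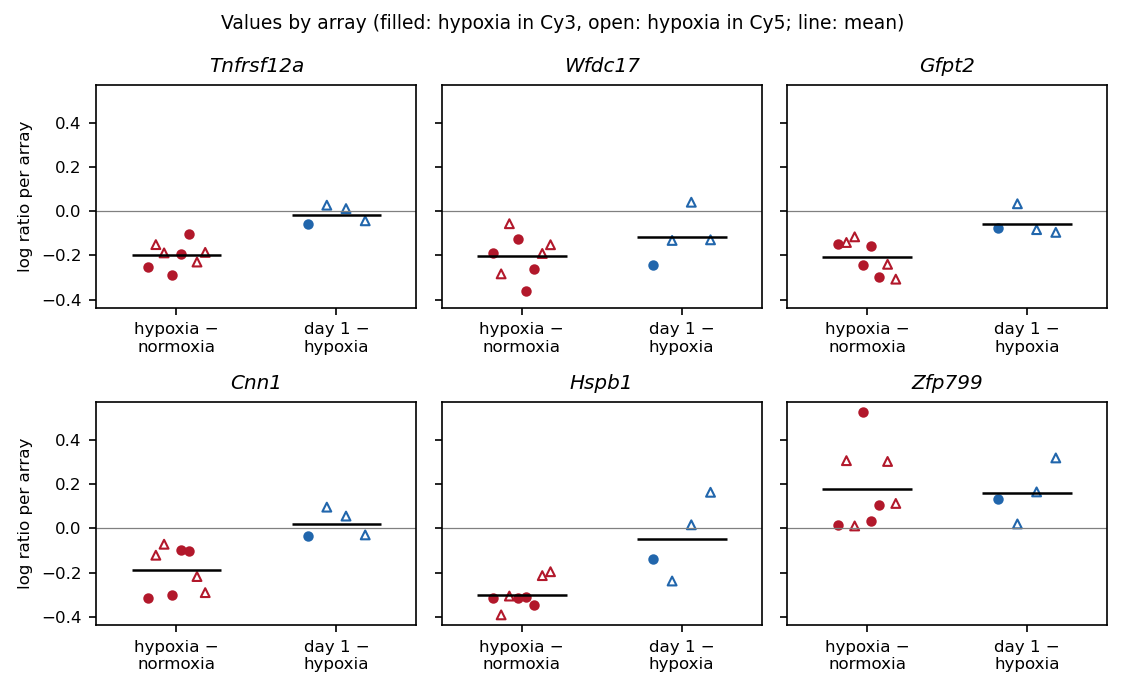
Log ratio per array (base read as log10), dye effect removed, for 6 genes: 8 arrays of hypoxia minus normoxia on the left of each panel and 4 of day 1 minus hypoxia on the right, filled points with hypoxia in Cy3, open ones with hypoxia in Cy5, and lines at the means. Hypoxia values of Tnfrsf12a, Wfdc17, Gfpt2, Cnn1 and Hspb1 are all below 0, and day 1 values lie on both sides of 0 except for Zfp799.

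The part inherited from hypoxia was then followed over all entries called for hypoxia minus normoxia on the 12 arrays. Among the 244 that were higher in hypoxia, the median was 0.135 in hypoxia minus normoxia, -0.0270 in day 1 minus hypoxia and 0.107 in the sum. Day 1 minus hypoxia was below 0 in 188 of them and above 0 in 56. Among the 231 that were lower, the medians were -0.123, 0.00680 and -0.119, with 137 above 0 and 94 below 0 in the day 1 part. Over all entries the median of the day 1 part was -5.31e-05, with 15305 above 0 and 15348 below. The hypoxia animals of the 2 parts were different ones, and the 2 estimates were uncorrelated by design.

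For the 244 higher entries, the median on each day 1 array was -0.0485 on H_N1 replicate 1, and -0.0355, -0.0342 and 0.00195 on N1_H replicates 1 to 3. H_N1 replicate 1 and N1_H replicates 1 and 2 lay below 0, and N1_H replicate 3 close to it. The alveolar marker score was negative on the same arrays and above 0 on N1_H replicate 3, and its part in this result was not tested. On the 26 other arrays the median of the same entries was 0.00619, with 130 above 0 and 114 below. The 231 lower entries had a median of -0.00673 there, with 101 above 0 and 130 below. All entries by this route had a median of -0.00387, with 14080 above 0 and 16573 below. So for the higher and for the lower entries, the medians by the direct arrays and by the other route lay on opposite sides of 0. Across the 30653 entries, Pearson's r between hypoxia minus normoxia and day 1 minus hypoxia was -0.241 (Spearman -0.166) for the direct arrays, and 0.173 (0.147) for the other route. The 2 estimates of day 1 minus hypoxia correlated at -0.149 (Spearman -0.0499). These are descriptions across entries, which are not independent and share tissue composition. The test of a difference between the routes called 0 entries (0%), with 1661 at an unadjusted p under 0.05 (5.42%) and a smallest adjusted p of 0.228.

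**Figure D3:**
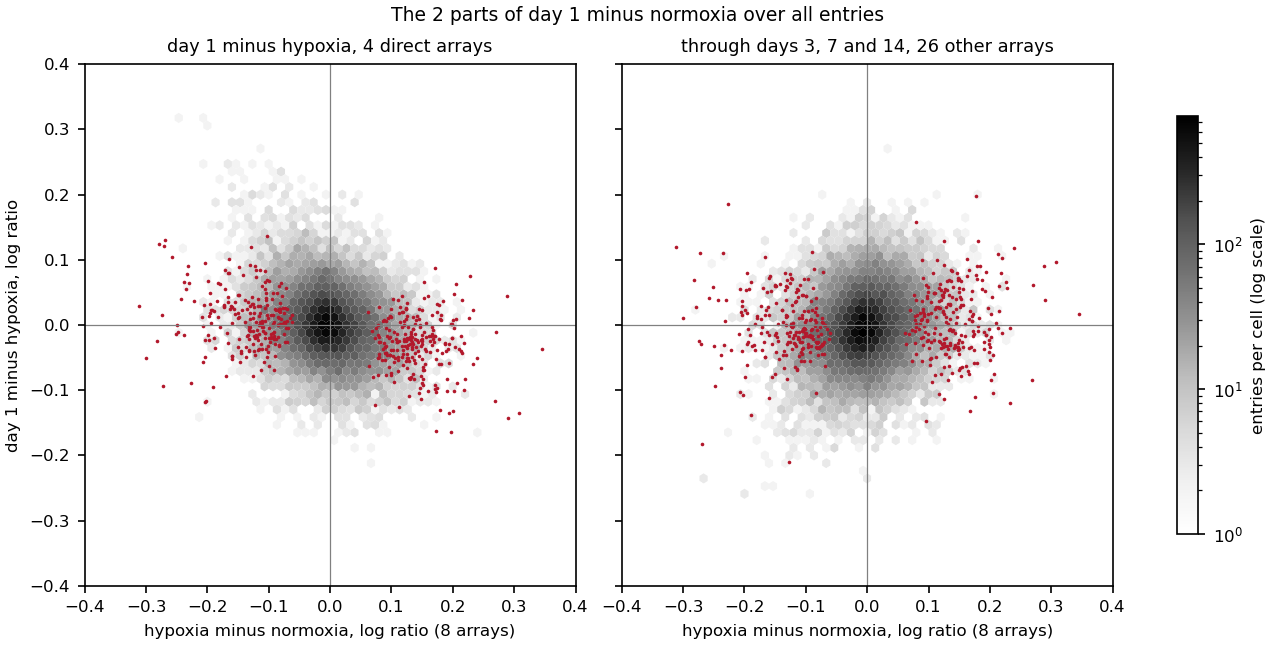
Hypoxia minus normoxia (horizontal, 8 arrays) against day 1 minus hypoxia (vertical) for 30653 entries, by the 4 direct arrays on the left and by 26 other arrays on the right, as log ratios; grey cells show the number of entries and red points the 475 called for hypoxia minus normoxia. On the left the red points with positive values lie mostly below 0, and on the right they lie on both sides of 0.

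The genes called in hypoxia whose direct day 1 part ran most strongly the other way were next listed. Gpx3, the secreted glutathione peroxidase, was at 0.194 ± 0.0283 in hypoxia minus normoxia (adjusted p = 0.0119) and -0.135 ± 0.0418 in day 1 minus hypoxia. Its hypoxia arrays ran from 0.0975 to 0.294 (median 0.207). Its day 1 arrays were at -0.229 on H_N1 replicate 1, and -0.177, -0.0779 and -0.0564 on N1_H replicates 1 to 3. All 4 lay below 0 and the sum with normoxia was 0.0590 ± 0.0505. Since the gene was picked for its opposite day 1 part on these same arrays, neither is separate support. The other route gave a day 1 part of -0.0152 ± 0.0376 for Gpx3. The uncharacterised transcript 1300002E11Rik went from 0.172 ± 0.0258 to a day 1 part of -0.162 ± 0.0381, and Ubxn6, a cofactor of the p97 segregase, from 0.112 ± 0.0195 to -0.125 ± 0.0289. Tnfrsf18, Tango6 and Pagr1a had day 1 parts of -0.131, -0.130 and -0.122. By the other route Ubxn6 and Tango6 were above 0 in the day 1 part, at 0.0283 ± 0.0446 and 0.0902 ± 0.0583.

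In the other direction, Osmr, a receptor subunit for oncostatin M, was at -0.103 ± 0.0223 in hypoxia minus normoxia (adjusted p = 0.0464) and 0.136 ± 0.0330 in day 1 minus hypoxia. Its day 1 minus hypoxia values were 0.0986 on H_N1 replicate 1, and 0.157, 0.182 and 0.108 on N1_H replicates 1 to 3, all above 0. Its hypoxia minus normoxia values were all below 0 and ran from -0.212 to -0.0269 (median -0.0902). The sum was 0.0337 ± 0.0398, and the other route gave a day 1 part of 0.0700 ± 0.0640. Ccl9, a chemokine of myeloid cells, had hypoxia values from -0.406 to -0.112 (median -0.286). Its day 1 values were 0.151 on H_N1 replicate 1, and 0.163, 0.191 and -0.00821 on N1_H replicates 1 to 3. The parts of Ccl9 were -0.278 ± 0.0300 and 0.124 ± 0.0443, and its sum -0.154 ± 0.0535. The lectin Clec10a and the folate receptor Folr2, both found on macrophages, had day 1 parts of 0.121 ± 0.0590 and 0.119 ± 0.0398. The other route gave -0.0289 ± 0.0697 for Clec10a and -0.0264 ± 0.0529 for Folr2. None of these day 1 parts passed the adjusted threshold, and these genes too were picked for them on the same direct arrays.

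Genes with the smallest p for the direct day 1 part included some with almost no hypoxia part. S1pr1, the sphingosine 1-phosphate receptor of endothelium, was at -0.131 on H_N1 replicate 1, and -0.110, -0.144 and -0.157 on N1_H replicates 1 to 3. The 4 arrays lay close together, but the gene was picked for its small p on these same arrays. Its hypoxia minus normoxia values ran from -0.0397 to 0.0827 (median 0.00220). The day 1 part of S1pr1 was -0.136 ± 0.0220 (unadjusted p = 5.57e-05, adjusted p = 1.00, limma) and its sum -0.125 ± 0.0266. The other route gave -0.00925 ± 0.0396. Pcolce, which enhances the processing of procollagen, had a day 1 part of -0.136 ± 0.0242 directly and 0.0527 ± 0.0600 by the other route. Hgf, the hepatocyte growth factor, was at 0.108 ± 0.0251 and -0.0406 ± 0.0351. Acadm, a dehydrogenase of fatty acid oxidation, was at 0.133 ± 0.0314 and -0.0266 ± 0.0518. The transcript 1700100I10Rik was at 0.243 ± 0.0471 and -0.109 ± 0.0659. For these 4 the routes thus gave opposite signs. By the other route the smallest p belonged to Dhrs7b, at -0.193 ± 0.0395, Lama5, a laminin chain, at 0.140 ± 0.0342, and Olfr1145, at -0.137 ± 0.0329. Lama5 was at -0.0982 ± 0.0404 on the direct arrays, and its route difference had an unadjusted p of 7.64e-05 and an adjusted p of 0.339.

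Gene lists of cell types and pathways were then read by their counts and medians. None of their 638 measured members passed for day 1 minus normoxia on the 12 arrays. Of all entries, 47.8% were above 0 in day 1 minus normoxia, with a median of -0.00249. The list medians ran from -0.0742 to 0.0656. Some genes, such as Ccl17, Vcam1 and Cd74, belong to more than 1 list, so counts of different lists are not separate. Cd74, a class II gene, is also the alveolar type 2 member that was lower. Counts of members at an unadjusted p under 0.05 are to be read beside the 2.67% (higher) and 3.04% (lower) of all entries.

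Smooth muscle contractile genes were lower on day 1 than in normoxia in 17 of 21, with a median of -0.0582, and 6 lower and 1 higher had an unadjusted p under 0.05. The median was -0.0373 in hypoxia minus normoxia, where 4 passed as lower, -0.00493 in direct day 1 minus hypoxia and -0.0194 by the other route. Acta2, smooth muscle actin, was at -0.128 ± 0.0464 in the sum. Its hypoxia values ran from -0.213 to -0.0268 (median -0.119), and its day 1 values were -0.0326 on H_N1 replicate 1 and -0.128, 0.00822 and 0.104 on N1_H replicates 1 to 3. The day 1 arrays thus surrounded 0. Tagln (transgelin) was at -0.118 ± 0.0478 and Ldb3, a Z-disc protein, at -0.118 ± 0.0400. Only Cnn1 of the list passed over 38 arrays. With the alveolar score in the fit, the list median was -1.49e-05 in hypoxia minus normoxia and -0.0375 in the sum. Over 38 arrays the median of the sum was -0.0514 without the score and -0.0600 with it. Hypoxia medians of other lists moved in different ways with the score. That of heat shock chaperones went from -0.0893 to -0.137, and that of endothelial markers from 0.0126 to -0.0313. Cytokines and chemokines went from -0.0324 to 0.00411, and immediate early genes from -0.0300 to 0.0411. In the sum, the airway median went from 0.0656 to 0.126. What these shifts reflect was not tested.

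Collagens and other fibroblast matrix genes were lower in 17 of 20 (median -0.0424), 4 of them at an unadjusted p under 0.05, and elastic fibre genes in 11 of 16 (median -0.0234), again with 4. Col3a1, a fibrillar collagen chain, was at -0.117 ± 0.0316, with -0.0841 ± 0.0177 from hypoxia (adjusted p = 0.0418) and -0.0325 ± 0.0261 from day 1. Thbs1, thrombospondin, was at -0.249 ± 0.0721, of which the hypoxia part was -0.249 ± 0.0404 and the day 1 part 0.000174 ± 0.0597. Sparc, a collagen-binding matricellular protein, was at -0.0857 ± 0.0343, with a hypoxia part of 0.00436 ± 0.0192 and a day 1 part of -0.0900 ± 0.0284. Eln, elastin, was at -0.127 ± 0.0518 with a day 1 part of 0.00283 ± 0.0429, while Ltbp4, a latent TGF-beta binding protein, was at -0.0966 ± 0.0428 with a hypoxia part of -0.0119 ± 0.0240. No test of a difference between these genes was run.

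Endothelial markers were lower in 11 of 18 (median -0.0412), and 5 had an unadjusted p under 0.05, all lower. Here the hypoxia median was 0.0126 and the direct day 1 median -0.0375, with every day 1 array below 0 (-0.0843 to -0.0111), but the other route gave 0.0166. Vwf, von Willebrand factor, was at -0.142 ± 0.0331. Its hypoxia values ran from -0.205 to -0.0534 (median -0.109), and its day 1 values were -0.00696 on H_N1 replicate 1 and -0.0370, -0.0338 and -0.0373 on N1_H replicates 1 to 3. All 12 arrays of Vwf lay below 0, but its day 1 part was -0.0288 directly and 0.0429 by the other route. Plvap, which forms the diaphragms of fenestrae and caveolae, was at -0.201 ± 0.0653, with day 1 values of -0.257 on H_N1 replicate 1 and -0.108, 0.0288 and -0.168 on N1_H replicates 1 to 3. Its day 1 part was -0.126 ± 0.0541 by the direct arrays and 0.0526 ± 0.0525 by the others. Esam, a junction adhesion molecule, and Ramp2, the partner of the adrenomedullin receptor, were at -0.103 ± 0.0306 and -0.129 ± 0.0408. These 4 had the smallest p of the list. The day 1 parts of Esam and Ramp2 were -0.0180 and -0.0432 directly, and 0.00731 and 0.0115 by the other route. The 7 members above 0 included Emcn at 0.135, Tek at 0.103, Kdr at 0.0980 and Robo4 at 0.0795, named after their values were seen. A separate list of capillary endothelial markers had 7 of 11 above 0 and a median of 0.0152.

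Arterial and venous endothelial markers had a median of -0.0410, with 9 of 13 lower and 3 lower at an unadjusted p under 0.05. The adhesion molecules that leukocytes use had a median of -0.0430, with 9 of 12 lower and 2 lower at that p. Vcam1, which binds leukocyte integrins, was at -0.139 ± 0.0453, with a hypoxia part of -0.132 ± 0.0254 (adjusted p = 0.0316) and a day 1 part of -0.00717 ± 0.0375. Mcam, a junction molecule of endothelium and pericytes, was at -0.140 ± 0.0517. Among the artery genes, Gja4 (connexin 37), Efnb2 (ephrin B2) and Bmx had the larger part on day 1. Dll4, Gja5, Hey1 and Sox17 had it in hypoxia. Gja4 had a hypoxia part of -0.00291 ± 0.0303 and a day 1 part of -0.115 ± 0.0447, and Efnb2 -0.0288 ± 0.0175 and -0.0591 ± 0.0259. By the other route the day 1 part of Gja4 was 0.0700 ± 0.0387 and that of Efnb2 -0.000816. Dll4 had a hypoxia part of -0.0633 and a direct day 1 part of -0.0266. The same parts were -0.0687 and 0.0436 for Gja5, and 0.0766 and -0.0236 for Hey1. They were 0.0305 and -0.0155 for Sox17, and 0.0106 and 0.0216 for Bmx.

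Dendritic cell and class II genes had the lowest median of all lists, -0.0742, with 15 of 16 lower and 4 lower at an unadjusted p under 0.05. The hypoxia median was -0.0292 and the direct day 1 median -0.0267. Ccl17, a chemokine of dendritic cells, was at -0.358 ± 0.105. In hypoxia it ran from -0.434 to 0.115 (median -0.288), and its day 1 values were -0.0358 on H_N1 replicate 1 and -0.196, -0.132 and -0.217 on N1_H replicates 1 to 3. All 4 day 1 arrays lay below 0, but the other route gave 0.00864 ± 0.0641. Cd74, the invariant chain of class II, was at -0.112 ± 0.0444 and H2-DMb1, which loads peptides onto class II, at -0.120 ± 0.0512. Their day 1 parts were -0.0821 ± 0.0367 and -0.138 ± 0.0424 directly, and -0.00188 ± 0.0355 and -0.00778 ± 0.0474 by the other route.

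Of the macrophage and monocyte markers 12 of 18 were lower (median -0.0272), with 2 higher and 2 lower at an unadjusted p under 0.05. Of cytokines and chemokines 15 of 23 were lower (median -0.0293), 3 of them at that p. Csf1, the growth factor of macrophages, was at -0.265 ± 0.0567. Hypoxia values of Csf1 ran from -0.277 to 0.0164 (median -0.133), and its day 1 values were -0.0789 on H_N1 replicate 1 and -0.212, -0.104 and -0.192 on N1_H replicates 1 to 3, all below 0. Its day 1 part was -0.147 ± 0.0469 directly and 0.0162 ± 0.0715 by the other route. Retnla, a product of alternatively activated macrophages, went the other way, at 0.217 ± 0.0670, and Lyz2, lysozyme of myeloid cells, was at 0.104 ± 0.0427.

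Heat shock chaperones, which hold or refold damaged proteins, were lower in 12 of 15 (median -0.0494), with 3 at an unadjusted p under 0.05. Their hypoxia median was -0.0893, with 3 called as lower, while day 1 minus hypoxia had a median of 0.0240 directly and 0.0126 by the other route. Hspb1, the small heat shock protein that guards actin filaments, had the largest sum of the list, -0.350 ± 0.0673. Its hypoxia values ran from -0.391 to -0.196 (median -0.312), and its day 1 values were -0.141 on H_N1 replicate 1 and -0.238, 0.0161 and 0.163 on N1_H replicates 1 to 3. All 8 hypoxia arrays lay below 0, and the day 1 arrays fell on both sides of it. Over 38 arrays Hspb1 had an adjusted p of 0.0501. Hsp90aa1, the inducible form of Hsp90, had parts of -0.231 ± 0.0356 (adjusted p = 0.0152) and 0.0903 ± 0.0526, with day 1 values of -0.0594 on H_N1 replicate 1 and 0.127, 0.0472 and 0.247 on N1_H replicates 1 to 3. Hspe1, the co-chaperonin of mitochondria, was at -0.0821 ± 0.0375 and Bag3, a cochaperone of Hsp70, at -0.0746 ± 0.0398.

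The promoters of these chaperones are shown because heat shock genes are known to share a binding sequence for the heat shock factors. Of 12 chaperone genes with a promoter in the RefSeq table (GRCm38.p6, 250 bases before to 50 after the start), 9 held GAANNTTC on either strand, against 1203 of 15306 genes on the array (7.86%). Matches are in capitals, in Hspb1 (chr5:135887669-135887968, plus strand), Hspe1 (chr1:55087898-55088197, plus) and Bag3 (chr7:128523333-128523632, plus). Hspb1 held 2 matches, beginning at -117 and -97 from the start, while Hspe1 held 1 at -84 and Bag3 1 at 42.
Hspb1: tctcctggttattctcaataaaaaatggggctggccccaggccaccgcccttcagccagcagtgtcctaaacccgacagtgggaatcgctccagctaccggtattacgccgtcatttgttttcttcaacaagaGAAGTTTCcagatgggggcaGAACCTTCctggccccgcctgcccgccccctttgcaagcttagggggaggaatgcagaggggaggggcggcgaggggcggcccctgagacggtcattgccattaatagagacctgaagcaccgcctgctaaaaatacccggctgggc
Hspe1: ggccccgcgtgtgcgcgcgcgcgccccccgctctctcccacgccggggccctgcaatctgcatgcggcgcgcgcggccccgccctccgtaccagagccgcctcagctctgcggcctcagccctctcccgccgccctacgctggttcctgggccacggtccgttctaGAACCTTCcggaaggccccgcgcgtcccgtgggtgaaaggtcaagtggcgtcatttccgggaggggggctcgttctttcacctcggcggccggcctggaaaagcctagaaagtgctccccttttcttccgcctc
Bag3: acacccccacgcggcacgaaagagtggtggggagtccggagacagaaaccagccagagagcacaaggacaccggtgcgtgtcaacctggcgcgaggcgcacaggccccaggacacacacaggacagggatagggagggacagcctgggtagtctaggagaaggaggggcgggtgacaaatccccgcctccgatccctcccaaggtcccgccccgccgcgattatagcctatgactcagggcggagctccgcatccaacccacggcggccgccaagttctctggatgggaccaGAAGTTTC
A match describes these letters and is not a site in use.

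Circadian clock genes were higher in 14 of 19 (median 0.0547), with 3 higher and 1 lower at an unadjusted p under 0.05. The hypoxia median was 0.0595 and that of the day 1 part -0.0129 directly and -0.0102 by the other route. Tef, a clock output factor that binds D-box sequences, was at 0.166 ± 0.0567. Its hypoxia values ran from 0.0780 to 0.375 (median 0.189), and its day 1 values were 0.124 on H_N1 replicate 1 and -0.0503, -0.0780 and -0.109 on N1_H replicates 1 to 3. The hypoxia part of Tef was 0.194 ± 0.0318 (adjusted p = 0.0180). Its relative Hlf was at 0.282 ± 0.0887, with most in the direct day 1 part: 0.132 on H_N1 replicate 1 and 0.317, 0.260 and 0.0799 on N1_H replicates 1 to 3. All 4 lay above 0, but the other route gave -0.142 ± 0.108. Nfil3, which represses at the same sequences, was at -0.324 ± 0.119 and the clock activator Rora at 0.118 ± 0.0458. The hour of tissue collection is not given in the labels.

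The promoter of Tef (chr15:81802423-81802722, plus strand, GRCm38.p6) is shown for the E-box CACGTG, the core sequence bound by the clock activators, in capitals at -127 from the start. The table holds 2 starts for Tef and the one with the match is printed. E-boxes of this form stood in 5 of 16 clock genes (31.3%) and in 9.66% of all genes on the array. The D-box TTATGTAA stood in 1 of 16 and in 0.928%, and the CArG box of smooth muscle genes in 2 of 17 contractile genes and in 1.65%.
Tef: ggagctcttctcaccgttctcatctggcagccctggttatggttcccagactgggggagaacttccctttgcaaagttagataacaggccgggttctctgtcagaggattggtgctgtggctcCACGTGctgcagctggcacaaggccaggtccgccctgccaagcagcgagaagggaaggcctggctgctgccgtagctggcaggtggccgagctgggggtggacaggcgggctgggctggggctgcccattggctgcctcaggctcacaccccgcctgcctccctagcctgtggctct
No match in a window says nothing of the factor.

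Targets of the hypoxia inducible factors, which oxygen keeps in check, had a median of 0.0158 on day 1, with 17 of 24 higher and 1 higher at an unadjusted p under 0.05. In hypoxia minus normoxia the median was 0.00532, and 2 passed as higher. Pfkfb3, a glycolytic regulator, was at 0.115 ± 0.0506 and Bnip3, a mitophagy receptor, at 0.0672 ± 0.0331. Immediate early genes, which respond within minutes to stimuli and handling, had a median of -0.0254, with 5 lower and 1 higher at an unadjusted p under 0.05. The median of their day 1 part was -0.00851 directly and 0.0445 through the other days. Fosl2 and Klf4, factors of this class, were at -0.155 ± 0.0394 and -0.166 ± 0.0504. Red cell genes had a median of -0.0427 (7 of 10 lower), with none at an unadjusted p under 0.05. The globin gene Hba-a2 was at -0.169 ± 0.118, with day 1 values of -0.230 on H_N1 replicate 1 and -0.471, -0.116 and 0.116 on N1_H replicates 1 to 3. The day 1 values of Hba-a2 spanned 0, and the other route gave -0.234 ± 0.0997. Cardiac muscle genes of the pulmonary vein sleeve had a median of -0.0271, with 14 of 18 lower and 1 higher and 1 lower at an unadjusted p under 0.05. Actc1, cardiac actin, was at -0.131 ± 0.0463, while Myh7, a cardiac myosin heavy chain, was at 0.180 ± 0.0805.

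Markers of cells that lie outside the vessel wall were read in the same way. Alveolar type 2 genes were higher in 12 of 13 (median 0.0572), with 2 higher and 1 lower at an unadjusted p under 0.05. Type 1 genes were higher in 11 of 13 (median 0.0469), 1 of them at that p. Their hypoxia medians were 0.0967 and 0.105, with 3 called as higher in each, and their direct day 1 medians -0.0319 and -0.0515. By the other route the day 1 medians were -0.00188 and -0.0103. Sftpb, a surfactant protein, was at 0.172 ± 0.0530. Its hypoxia values ran from 0.105 to 0.351 (median 0.189), and its day 1 values were -0.0225 on H_N1 replicate 1 and -0.117, -0.0857 and 0.0540 on N1_H replicates 1 to 3. The values of hypoxia minus normoxia were all above 0, and those of day 1 minus hypoxia fell on both sides of it. Clic5, a chloride channel protein of type 1 cells, was at 0.121 ± 0.0433.

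Airway epithelial markers had the highest median of all lists, 0.0656, with 11 of 12 higher and 3 higher at an unadjusted p under 0.05. Their median was 0.0369 in the hypoxia part, and 0.0727 in the day 1 part directly but 0.0191 by the other route. Scgb1a1, the club cell secretoglobin, had day 1 values of 0.164 on H_N1 replicate 1 and 0.217, 0.0228 and 0.0354 on N1_H replicates 1 to 3. All 4 lay above 0, and the day 1 part was 0.110 ± 0.0339 directly and 0.00187 ± 0.0266 by the other route. Dynlrb2, a dynein subunit of cilia, was at 0.191 ± 0.0753 in the sum. The mean of the airway list on the day 1 arrays was 0.144, 0.0760, -0.0352 and 0.0314 in the same order. Alveolar and airway markers moved with the groups that the other lists compare, and their part in those results was not tested beyond the covariate values given. The 24 lists not described here had medians between -0.0618 and 0.0534, and 0 called members on the 12 arrays.

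**Figure D4:**
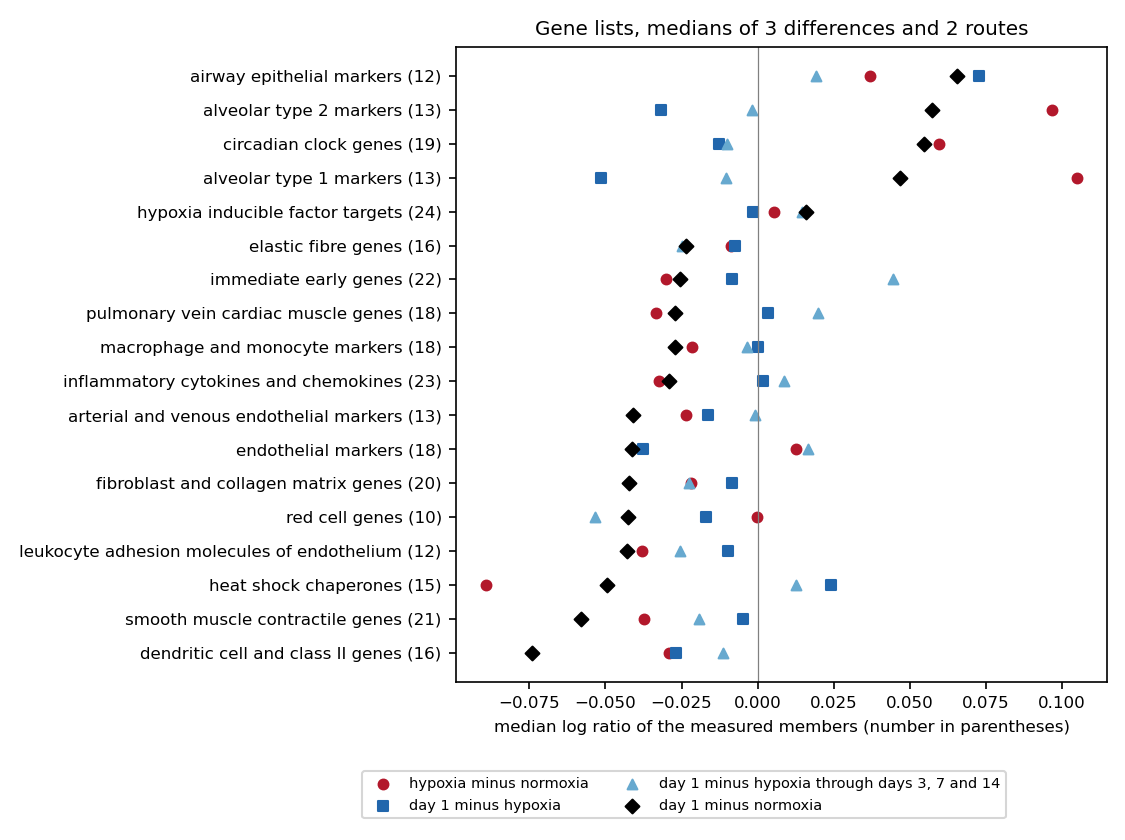
Median log ratio (base read as log10) of the measured members of 18 gene lists, with the number of members in parentheses, for hypoxia minus normoxia (circles), day 1 minus hypoxia by 4 arrays (squares) and by 26 others (triangles), and day 1 minus normoxia on 12 arrays (diamonds). Dendritic cell genes are lowest in the sum at -0.0742 and airway genes highest at 0.0656, and for endothelial markers the 2 routes of the day 1 part lie on opposite sides of 0.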

How the data were processed

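RNA of microdissected lung vessels was measured on 2-colour Agilent arrays. The deposited values, 1 log ratio per feature and array, were read as log10 values, a base that is not stated. Per the submitters' processing notes, limma was applied by the authors, with no version named. How images were read, corrected for background and normalized is not given in the sources used here. Array medians of the 12 arrays lay between -0.00262 and 0.00145. Scanner signals, slides and scan dates were not used here, so dim features and batches could not be examined. Precision is limited by the number of arrays, and p-values measure the spread between arrays, each a pair of animals.

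Of 45220 features, 2 with missing values were left out. The platform annotation, in part old, gave 1 symbol to 33653 features, several to 56 and none to 11511. Features of a gene were averaged, giving 30653 entries, 19087 of them named. The fit used lmFit and eBayes (limma 3.58.1, R 4.3.3) with a dye intercept, hypoxia minus normoxia and day 1 minus hypoxia, whose sum is day 1 minus normoxia (9 residual degrees of freedom). Tests were two-sided, with Benjamini-Hochberg adjustment over all entries at 0.05. Errors are SEs of the fit. Alternatives were all 38 arrays with 5 condition terms (32 residual degrees of freedom), no dye term, other scalings and probe rules, a filter on the 25% of entries with the lowest SD, robust or weighted fits, the replicate number as a block, an alveolar marker score as a covariate, and each array left out. Day 1 through days 3, 7 and 14 alone, and these settings applied to the 38 arrays, were added after seeing the data.

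Named genes were the largest called in each direction, filled from the 38-array fit where the 12-array fit called none, those with the largest, smallest and opposite day 1 parts, those with the smallest p of the day 1 part by each route, and up to 4 of each described list with the smallest p. The 42 lists hold 695 symbols, 638 measured. Members and lists were chosen with earlier results of these data known. On simulated data of 30653 entries, with 40 changed by each of 5 amounts of day 1 minus normoxia, 10% of those changed by 0.1, 40% by 0.2, 72.5% by 0.3, 77.5% by 0.4 and 90% by 0.5 were recovered on 12 arrays, with 9 unchanged entries called. On 38 arrays the shares were 20%, 70%, 90%, 97.5% and 100%, with 8. The simulated noise was normal and independent between entries, and changes were placed only in the day 1 part. Real entries are not independent, so these shares need not hold for them.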

Additional observations from a re-analysis of the deposited data

Results flagged for a closer look

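Some values stood apart from the other arrays of their group by Dixon's test, out of 78 groups tested, where chance gives about 1 in 20. In day 1 minus hypoxia, Gfpt2 was at 0.0332 on N1_H replicate 1, while the other 3 arrays lay between -0.0962 and -0.0779. The median of macrophage and monocyte markers was 0.0372 on N1_H replicate 2, against -0.0172 to -0.0108 on the others. The median of immediate early genes was 0.0435 on H_N1 replicate 1, the array with day 1 in Cy5, against -0.0156 to -0.00716. In hypoxia minus normoxia, N_H replicate 3 stood apart in 2 values: Hmga2-ps1 was at -0.156, next to -0.106 on the nearest array, and the median of cytokines and chemokines at -0.0772, next to -0.0289.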

How the results depend on the processing

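Day 1 minus normoxia called 0 entries on the 12 arrays under every planned setting other than the 38 arrays (34) and the fits with an array left out (0 to 1), and 2 through days 3, 7 and 14 alone. Hypoxia minus normoxia, with 475, called 263 with arrays scaled to 1 spread, 153 with the replicate block, 1 with the alveolar covariate, 1102 over 38 arrays and 132 to 429 with an array left out. Day 1 minus hypoxia called 0 throughout, 0 to 0 with an array left out. The 38-array count of 34 was 18 with no dye term, 152 with array weights, 1 with the alveolar covariate, 21 with named genes only and 1 to 98 with an array left out. The cause was not tested. With the replicate block the 38-array count was 27. Same-numbered arrays deviated from their group means with correlations of -0.325 to 0.255. Deviations from a shared mean are not independent, so these values cannot settle whether such arrays share more than a number. Through days 3, 7 and 14 alone, day 1 minus normoxia changed sign for Scgb1a1 (-0.0166), Gja4 (0.0639), H2-DMb1 (0.0113), Hlf (-0.0558), Bnip3 (-0.0245) and Fech (-0.0131). Day 1 minus hypoxia was followed across settings for 17 results only. Its sign changed for Tango6 (0.0921), Ubxn6 (0.0267), 1700100I10Rik (-0.110), Hgf (-0.0416), Acadm (-0.0251), Clec10a (-0.0267), Folr2 (-0.0263) and Pcolce (0.0544). Day 1 parts outside these results also had opposite signs by the direct arrays and the other route, among them Plvap, Csf1, Ccl17, Lama5, Hlf, Gja4 and Vwf. Each day 1 value on the 12 arrays rests on 4 animals, 3 of them in Cy3, and the base and direction of the ratios are unsettled.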
